A study of Arabidopsis thaliana with 18 samples.

Results

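Transcript levels are described here for 4 transcription factor genes of Arabidopsis thaliana: HB7 (AT2G46680), HB12 (AT3G61890), MYB102 (AT4G21440) and ABI5 (AT2G36270). They were taken by locus from a table of 6740 genes, in which all 4 are present, and are followed over 6 groups of seedlings. They were chosen with earlier results of these data known, so counts of them beside table shares are a description and no independent support. In the wild type all 4 genes had higher values under the hormone abscisic acid (ABA) and under mannitol than in control. The authors called all of these differences except that of ABI5 under ABA. In a line mutated in the ABA receptors HB7, HB12 and ABI5 were not called changed under ABA, MYB102 rose from a low level, and under mannitol HB7, HB12 and ABI5 rose to different extents.

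ABA is the hormone that plants make when water is short. It binds PYR/PYL receptors, which then block clade A PP2C phosphatases and so release SnRK2 kinases. These phosphorylate basic leucine zipper (bZIP) factors such as ABI5 and the ABFs, which bind the ABA-responsive element (ABRE) in the promoters of target genes. HB7 and HB12 are paired homeodomain-leucine zipper (HD-Zip) class I factors known to be induced by water deficit, to act on growth, and to raise PP2C genes while repressing receptor genes. MYB102 is an R2R3-MYB factor known from osmotic stress and wounding. ABI5 is best known from seeds and young seedlings, where it activates the late embryogenesis Em genes and holds back germination.

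The seedlings were 9 days old at treatment and belonged either to Col-0 wild type or to the pyl duodecuple line in the Col-0 background, which carries mutations in 12 PYR/PYL receptor genes. For 24 h they lay on filter paper wetted with growth medium (control), 100 µM ABA or 300 mM mannitol, an osmotic stress, so each genotype has its own control. Each of the 6 groups held 3 libraries, but the deposited table gives 1 FPKM value per group (fragment counts adjusted for transcript length and sequencing depth; the unit follows from the software named). No value therefore has a replicate error or a depth, no test could be run, and a rise or fall below always means the authors' deposited yes or no call. Every gene in the table was called in at least 1 of 4 comparisons, ABA or mannitol against control in each genotype, so shares of called genes in it are high.

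Of the 12 mutated receptor genes 5 are in the table. Among them PYR1 was listed at 173 FPKM in wild-type control and 181 FPKM in duodecuple control, and PYL5 at 90.6 and 13.1 FPKM. Such gene-level values cannot tell mutated from intact transcripts. Markers of shoot and root were both present. All 3 shoot markers were listed, and the small subunit gene of Rubisco, RBCS1A, stood between 2027 and 11967 FPKM. Of 5 root markers 3 were listed, with CASP1, a gene of the root endodermis, at 8.49 to 36.5 FPKM. In such whole seedlings, fewer cells of a type and less RNA per cell cannot be told apart.

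The 4 genes lie on the minus strand of their chromosomes in the reference build TAIR10.1, which was used for positions and sequence because the deposited table has none. HB7 is at chr2:19165274-19166967 and HB12 at chr3:22914154-22915393, each with 2 exons. MYB102 is at chr4:11418199-11419769 with 3 exons, and ABI5 at chr2:15204659-15207636 with 3 annotated transcripts of 4 to 5 exons. HB7 has 2 annotated transcript starts and ABI5 has 3. The start used below is the outer edge of the annotated gene, and windows set at other starts were not searched separately. The coding sequences of HB7 (777 bases) and HB12 (708 bases) were identical at 79.6% of 687 aligned bases. Their longest shared exonic run was 21 bases. Assignment of reads to the wrong gene of this pair was not examined. The authors' read length and counting rule are not given in the sources used here. MYB102 was closer to its relative MYB74 (79.9% of 929 aligned coding bases, longest shared run 26 bases) than to MYB41 (68.9%).

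The 250 bases before each annotated start are shown so that the relatives HB7 and HB12 can be compared base by base and elements known from ABA responses can be located. Each is written 5′ to 3′ on the gene's strand, from RefSeq TAIR10.1. In HB7 and HB12 the capitals mark the longest run that both hold. In MYB102 and ABI5 they mark matches to the ABRE core, ACGTG on either strand, including those inside the G-box CACGTG.
HB7 (chr2:19166968-19167217): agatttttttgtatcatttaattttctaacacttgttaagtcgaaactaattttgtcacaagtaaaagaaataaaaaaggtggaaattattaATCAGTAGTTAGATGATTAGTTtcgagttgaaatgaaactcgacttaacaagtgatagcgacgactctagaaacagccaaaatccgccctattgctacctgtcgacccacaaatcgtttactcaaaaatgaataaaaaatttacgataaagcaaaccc
HB12 (chr3:22915394-22915643): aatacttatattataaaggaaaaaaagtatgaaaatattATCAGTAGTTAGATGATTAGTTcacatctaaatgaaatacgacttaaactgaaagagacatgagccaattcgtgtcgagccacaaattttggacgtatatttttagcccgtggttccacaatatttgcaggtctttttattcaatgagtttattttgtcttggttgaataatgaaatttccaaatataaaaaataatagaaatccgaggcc
MYB102 (chr4:11419770-11420019): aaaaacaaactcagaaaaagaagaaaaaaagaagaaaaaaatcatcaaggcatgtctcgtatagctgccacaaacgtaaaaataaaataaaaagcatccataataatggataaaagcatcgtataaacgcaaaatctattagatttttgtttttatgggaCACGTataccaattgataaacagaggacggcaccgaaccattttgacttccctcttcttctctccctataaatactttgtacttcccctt
ABI5 (chr2:15207637-15207886): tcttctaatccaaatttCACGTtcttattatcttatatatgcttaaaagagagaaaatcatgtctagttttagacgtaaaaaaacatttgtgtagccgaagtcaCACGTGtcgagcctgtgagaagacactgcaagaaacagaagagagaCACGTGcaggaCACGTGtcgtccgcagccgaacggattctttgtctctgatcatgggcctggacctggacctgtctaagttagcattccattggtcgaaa

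HB7 and HB12 shared an uninterrupted run of 22 bases, at -158 to -137 in HB7 and at -211 to -190 in HB12, counted from the annotated start. Among the 27443 nuclear protein-coding genes searched the same way, these 2 alone held it. The longest run shared by any other pair of the 4 was 11 bases, between HB12 and ABI5. Those 2 genes alone held that run too, so being held by only 2 genes does not set the longer run apart. The run of 22 bases was noticed after the sequences were seen.

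From 250 bases before to 50 after the start, HB7 and HB12 held no match to the ABRE core, MYB102 held 1 at -90 to -86, and ABI5 held matches at 4 places. At 3 of these places ABI5 had the palindromic G-box, which holds the ABRE core on each strand, so 7 strand-wise matches overlap. An ABRE core was present in 26.7% of all 27443 windows, in 33.8% of those of table genes, and in 46.4% of those of genes called higher under ABA in the wild type. The G-box was present in 7.68% of all windows. None of the 4 windows held the drought-responsive (DRE) core CCGAC, present in 15% of all, or the HD-Zip I site CAATNATTG, present in 1.07%. A search of 1000 bases before the start, added after the first results, gave 1 ABRE core match in HB7, at -869 to -865, and 4 in HB12. In that longer stretch 54.4% of all genes held an ABRE core.

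**Figure D1:**
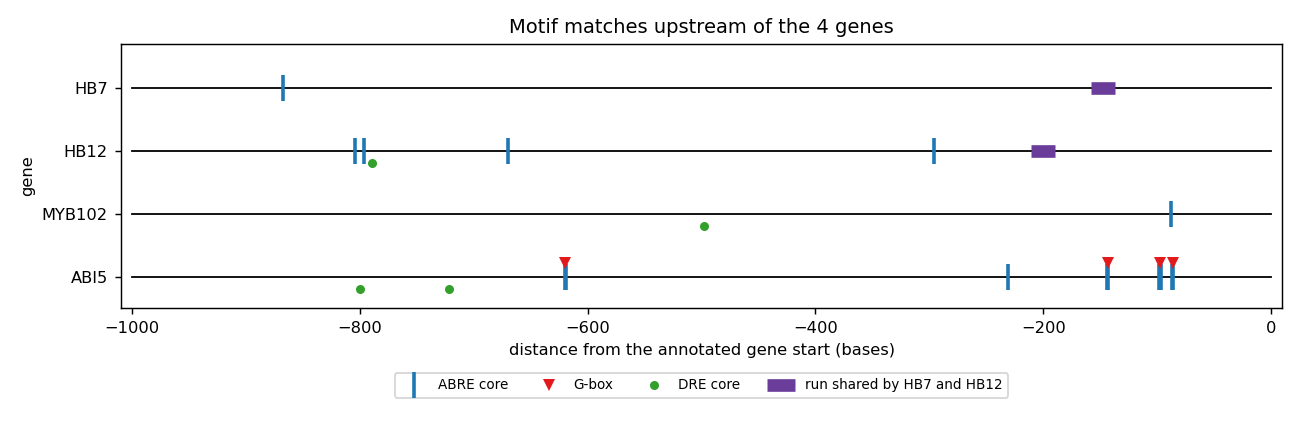
Matches to the ABRE core, the G-box and the DRE core on either strand along the 1000 bases before the annotated start of each gene, with the run shared by HB7 and HB12 as a bar; the horizontal axis is the distance from the start in bases. ABI5 has 3 G-box matches within the nearest 250 bases, MYB102 has 1 ABRE core match there, and HB7 and HB12 have none; no HD-Zip I site was found in any of the 4.

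HB7 had the highest level of the 4 in every group. In the wild type it was listed at 19.7 FPKM in control, 239 FPKM under ABA and 299.98 FPKM under mannitol. The duodecuple line was listed at 13.8, 17.2 and 62.9 FPKM in the same order. The treated wild-type groups thus stood well above all others, the mannitol-treated mutant stood between, and the other mutant groups lay just under the wild-type control. Neighbours in this order that were within 1.5-fold of each other were wild-type mannitol and wild-type ABA (1.25-fold), wild-type control and mutant ABA (1.15-fold), and mutant ABA and mutant control (1.25-fold). Without replicate values their spread is unknown, so their order is not established.

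HB12 followed HB7 at a lower level. The wild type was listed at 14.1 FPKM in control, 130 FPKM under ABA and 167 FPKM under mannitol, and the duodecuple line at 9.26, 8.22 and 20.2 FPKM. The 2 treated wild-type groups were again highest, and the mannitol-treated mutant was 6.44-fold below the nearer of them. The mannitol-treated mutant stood 1.43-fold above the wild-type control, and the other mutant groups lay below that control. HB7 stood 1.40-fold over HB12 in the wild-type control, 1.84-fold with ABA and 1.79-fold with mannitol. In the duodecuple line that ratio of levels was 1.49, 2.10 and 3.12, highest under mannitol, where HB7 kept more of its response than HB12.

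MYB102 was low in all groups but the treated wild type. It was listed at 1.03 FPKM in wild-type control, 20.2 FPKM under ABA and 6.36 FPKM under mannitol. The duodecuple line was listed at 0.376 FPKM in control, 0.768 with ABA and 0.495 with mannitol, so all 3 mutant groups lay below the wild-type control. MYB102 was the single member whose wild-type value was higher under ABA than under mannitol. Its highest and lowest groups were 53.9-fold apart, against 21.7-fold for HB7, 20.4-fold for HB12 and 3.42-fold for ABI5.

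ABI5 had a low and narrow range, from 1.07 to 3.68 FPKM. Wild-type values were 1.09 FPKM in control, 2.07 with ABA and 3.68 with mannitol, and those of the duodecuple line 1.18, 1.07 and 3.47 FPKM. Both mannitol groups were therefore highest and within 1.06-fold of each other. The 2 controls and the ABA-treated mutant lay within 1.097-fold. No group reached 5 FPKM.

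**Figure D2:**
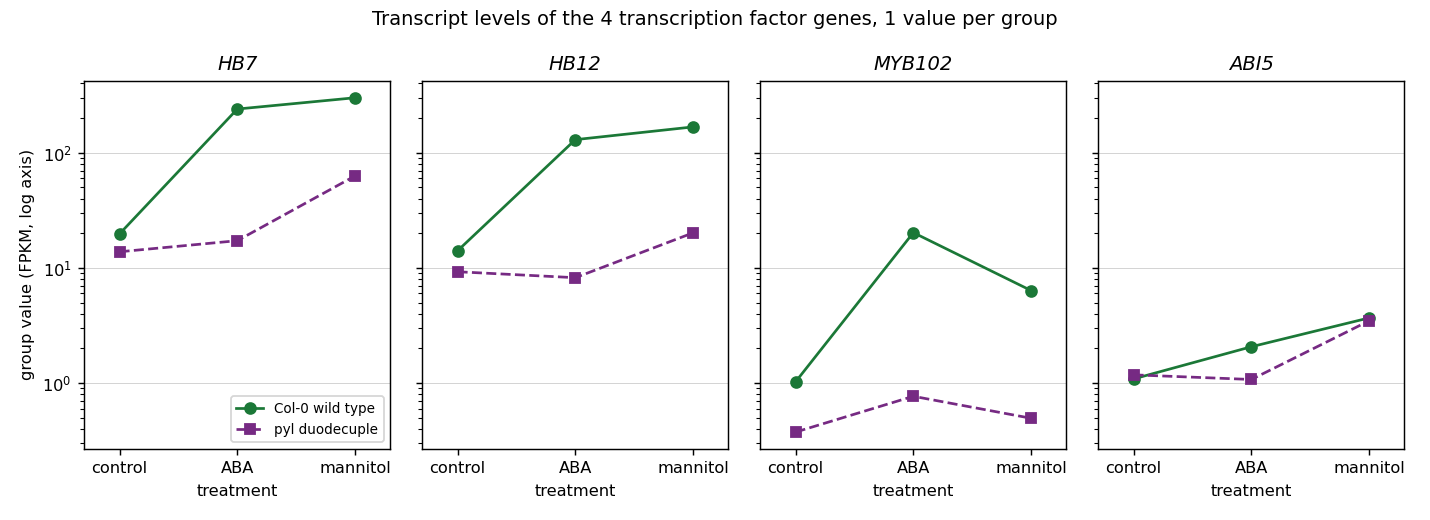
Group values in FPKM on a log axis for HB7, HB12, MYB102 and ABI5 in control, ABA-treated and mannitol-treated seedlings; circles are the wild type and squares the duodecuple line, 1 value per group without an error. The lines of the genotypes part under ABA for HB7, HB12 and MYB102, and meet under mannitol for ABI5, at 3.68 and 3.47 FPKM.

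The comparison of ABA with control asks which genes the hormone changes, first in the wild type. Per the authors' deposited table, 3 of the 4 genes rose under ABA in the wild type, against 17.6% of the 6740 table genes called higher and 27.3% called lower. Since the 4 genes were chosen with earlier results known, that count is no test of enrichment. MYB102 rose 19.7-fold (log2 ratio 4.30), HB7 12.1-fold (3.60) and HB12 9.22-fold (3.20). Their rises were the 96th, 142nd and 189th largest among 1185 genes called higher. ABI5 was 1.90-fold higher and was not called (log2 ratio 0.93). In these groups the summed level of the 3 listed root markers was 35.7 FPKM in control and 15.2 FPKM with ABA, with CASP1 called lower (3.301-fold), and that of the 3 shoot markers was 15852 and 11188 FPKM. The root markers did not move alike, as EXPA7 was listed at 5.52 and 5.42 FPKM. Of the shoot markers LHCB1.1 was called lower, from 134 to 49.5 FPKM. No marker was listed at 0, and their part in the rises was not tested.

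Of the 4 genes 1 rose in the mutant under ABA, against 2.49% of table genes called higher and 2.79% called lower, per the authors' deposited table. MYB102 rose 2.05-fold (log2 ratio 1.03), from 0.376 to 0.768 FPKM, and ranked 156th of 168 genes called higher. That increment of 0.393 FPKM was 2.04% of the wild-type increment of 19.2 FPKM, and with 0.1 FPKM added to both values the log2 ratio was 0.87. HB7 was 1.25-fold higher without a call, an increment of 3.42 FPKM against 220 FPKM in the wild type. HB12 and ABI5 had log2 ratios of -0.17 and -0.13, also without a call.

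Set against each other under ABA, the duodecuple line held 7.20% of the wild-type level of HB7, 6.33% of HB12 and 3.80% of MYB102. All 3 were thus more than 2-fold lower, as were 21.4% of the 4336 table genes with 5 FPKM in the higher group. ABI5 stood at 51.96% of the wild-type level, and neither of its values reached 5 FPKM. The response difference was obtained by subtracting the wild-type log2 ratio from that of the mutant. Without added FPKM it was alike for HB7 (-3.28), HB12 (-3.38) and MYB102 (-3.27). With 5 FPKM added to all values it was -3.06, -2.93 and -1.96 in the same order, so the likeness of MYB102 rested on low values. For ABI5 the response difference was -1.06, or -0.63 with 1 FPKM added to all values. A difference of -1 or lower was found for 16% of 6594 genes. The summed root markers stood at 46.9 FPKM in the ABA-treated mutant against 15.2 FPKM in the wild type, and the shoot markers at 16004 against 11188 FPKM. The shoot marker LHCB1.1 did not follow its sum, at 47.2 FPKM in the ABA-treated mutant and 49.5 FPKM in the wild type. The markers' part in these differences was not tested, and the ratios between genotypes carry no authors' call.

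The genotypes stood closer together without treatment. In control seedlings the duodecuple line held 69.9% of the wild-type level of HB7, 65.7% of HB12 and 36.6% of MYB102, and 108% of ABI5. MYB102 alone was past 2-fold, at 1.03 and 0.376 FPKM, and with 1 FPKM added its log2 ratio was -0.56. Of 6740 genes 6.19% were at least 2-fold lower in the mutant control without a minimum level.

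The comparison of mannitol with control asks for the osmotic response in each genotype. All 4 genes rose under mannitol in the wild type, per the authors' deposited table, in which 33.1% of genes were called higher and 35.3% lower. That count too concerns genes chosen with earlier results known. HB7 rose 15.2-fold (log2 ratio 3.92), HB12 11.9-fold (3.57), MYB102 6.20-fold (2.63) and ABI5 3.38-fold (1.76). Among 2230 genes called higher, HB7 ranked 169th and ABI5 982nd. In the same groups the summed level of the 3 shoot markers was 15852 FPKM in control and 2580 FPKM under mannitol, with none listed at 0, and that of the 3 listed root markers 35.7 and 39.0 FPKM. The root markers did not move alike. EXPA7 was listed at 5.52 FPKM in control and 18.8 FPKM under mannitol and was called higher. The root marker COBL9 stood at 2.16 and 3.73 FPKM and CASP1 at 28.0 and 16.5 FPKM, both without a call. The markers' part in the rises was not tested.

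The mutant retained a rise under mannitol for 3 of the 4 genes, against 23.3% of table genes called higher and 27.2% called lower, per the authors' deposited table. HB7 rose 4.55-fold (log2 ratio 2.19), ABI5 2.94-fold (1.56) and HB12 2.18-fold (1.12). MYB102 was 1.32-fold higher without a call. The genes thus split. ABI5 reached 94.3% of the wild-type level under mannitol, HB7 20.96%, HB12 12.03% and MYB102 7.79%.

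Measured as increments over control, the mutant gained 88.4% of the wild-type gain for ABI5, 17.5% for HB7, 7.10% for HB12 and 2.24% for MYB102. The response differences under mannitol were -0.20 for ABI5, -1.74 for HB7, -2.23 for MYB102 and -2.45 for HB12. Of 6602 genes 19.4% had a difference of -1 or lower. HB7, HB12 and MYB102 were more than 2-fold lower in the mutant, as were 21.6% of 4396 table genes with 5 FPKM in the higher group. Here the summed shoot markers stood at 7890 FPKM in the mutant against 2580 FPKM in the wild type, and the summed root markers at 22.04 against 39.0 FPKM. Among the root markers EXPA7 stood at 6.68 FPKM in the mutant against 18.8 FPKM in the wild type, and COBL9 at 0.947 against 3.73 FPKM. CASP1 was closer, at 14.4 against 16.5 FPKM. The markers' part in these differences was not tested.

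Because both treatments share a control, the treated groups were also set directly against each other. In the wild type mannitol over ABA was 1.25-fold for HB7, 1.29-fold for HB12 and 1.78-fold for ABI5, while MYB102 was 3.18-fold lower under mannitol, where 23.6% of 4234 genes with 5 FPKM were at least 2-fold lower. Among mutant values HB7 was 3.65-fold, ABI5 3.23-fold and HB12 2.45-fold higher under mannitol than under ABA. MYB102 was 1.55-fold lower, at 0.495 against 0.768 FPKM. At 5 FPKM or more, 24.6% of 4482 genes were at least 2-fold higher under mannitol in the mutant, HB7 and HB12 among them. These ratios were not tested either.

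**Figure D3:**
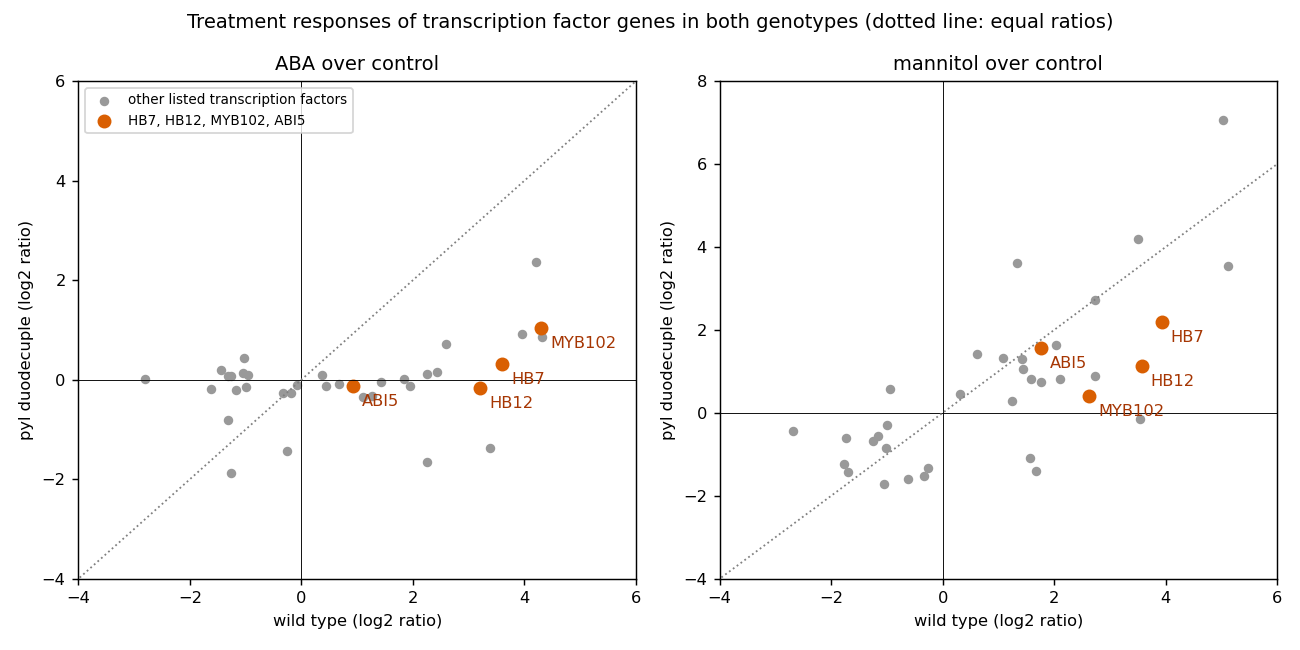
Log2 ratio of treated over control in the wild type (horizontal) and in the duodecuple line (vertical) for the 4 genes and 32 other listed transcription factors, ABA on the left and mannitol on the right; the dotted line marks equal ratios. Under ABA the 4 genes lie near 0 on the vertical axis or, for MYB102, at 1.03; under mannitol ABI5 lies near the dotted line and the other 3 lie below it.

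The calls of HB7 and HB12 formed 1 pattern, higher in both wild-type comparisons and in the mannitol-treated mutant but not in the ABA-treated mutant. It was shared by 340 table genes (5.04%), among them MYB2, NAP and GBF3 of the 32 other listed transcription factors. ABI5 was called higher under mannitol in both genotypes and under ABA in neither, like 529 genes (7.85%), including HB53, MYB13, MYB15 and ANAC055. The pattern of MYB102, called higher in all comparisons but the mannitol-treated mutant, was found in 29 genes (0.43%) and in none of the 32.

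Among the other HD-Zip I genes, 7 of 15 were in the table, and HB21 was the 1 that rose under wild-type ABA. HB21 rose 4.79-fold under ABA to 5.31 FPKM and 3.18-fold under mannitol to 3.52 FPKM. In the mutant it was listed at 0.657 FPKM in control, 0.210 with ABA and 0.247 with mannitol, without a call. In all, 1 of the 7 was called higher and 2 lower under wild-type ABA, and 2 higher and 3 lower under wild-type mannitol. Of all table genes, 17.6% and 27.3% were called higher and lower under ABA, and 33.1% and 35.3% under mannitol, so these shares were near the background. Median log2 ratios were -0.99 and -1.02, against -0.31 and -0.20 over the table. HB20 fell 2.49-fold under ABA, and HB16 and HB13 fell 2.39-fold and 2.02-fold under mannitol.

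In the mutant none of those 7 was called under ABA, where 2.49% and 2.79% of table genes were called higher and lower, and under mannitol 1 rose and 3 fell, against 23.3% and 27.2%. HB53 rose 2.52-fold, and 2.12-fold in wild-type seedlings. HB20, HB3 and HB54 fell 3.01-fold, 2.34-fold and 3.31-fold, the last from 1.66 to 0.501 FPKM.

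Of the 12 other group A bZIP genes, the family of ABI5, 3 were in the table. ABF3, a main bZIP factor of vegetative ABA signalling, rose from 22.3 to 59.7 FPKM under ABA (2.68-fold) and to 52.5 FPKM under mannitol (2.36-fold) in the wild type. ABF3 in the mutant was listed at 19.2, 18.7 and 23.2 FPKM and was not called. Its mannitol value was thus 2.26-fold lower in the mutant. The flowering factor FD fell in the mutant from 4.57 FPKM, by 2.70-fold under ABA and 2.87-fold under mannitol. BZIP27 fell under ABA in both genotypes, 2.403-fold in the wild type and 3.68-fold in the mutant, and 2.24-fold under wild-type mannitol, at values below 1.5 FPKM. Median log2 ratios of the 3 were -0.26 and -0.33 in the wild type under ABA and mannitol, against -0.31 and -0.20 over the table. In the mutant they were -1.43 and -0.55, against -0.03 and -0.29. The median of -1.43 is the value of FD alone, which fell from 4.57 to 1.70 FPKM. Of table genes 2.79% were called lower in the mutant under ABA, and with a minimum of 5 FPKM neither FD nor BZIP27 counted as lower there.

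Among 14 other R2R3-MYB genes linked to ABA or drought, 10 were in the table. MYB74 and MYB41, the listed relatives of MYB102, rose under ABA in the wild type 3.85-fold to 22.6 FPKM and 4.74-fold to 7.07 FPKM. Under mannitol MYB74 rose 2.95-fold in the wild type but fell 2.13-fold in the duodecuple line, while MYB41 was not called in either. MYB2, a drought-induced factor, rose 10.4-fold under wild-type ABA, 34.6-fold under wild-type mannitol and 11.6-fold under mannitol in the mutant. MYB15 rose 11.3-fold under mannitol in the wild type and 18.3-fold in the mutant, to 9.70 and 19.1 FPKM.

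The MYB list moved both ways, as did the table. Under wild-type ABA 3 of 10 rose and 4 fell (17.6% and 27.3% over the table). Under wild-type mannitol 4 rose and 2 fell (33.1% and 35.3%), and the medians were 0.15 for ABA and 0.02 for mannitol against -0.31 and -0.20 over the table. None was called under ABA in the mutant, and 3 rose and 3 fell under mannitol, against 23.3% and 27.2% of table genes, with medians of -0.10 and 0.08. MYB20 and MYB77 fell under mannitol in the wild type, 3.34-fold and 3.24-fold. MYB77 fell 2.67-fold and MYB73 2.53-fold in the mannitol-treated mutant.

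Of 15 other transcription factors of the ABA response, 12 were in the table and most rose in the wild type. Under ABA 8 rose and 2 fell, against 17.6% and 27.3% of table genes, with a median log2 ratio of 1.55 against -0.31. Under mannitol 9 rose and 1 fell, against 33.1% and 35.3%, with a median of 1.90 against -0.20. The list holds factors of the ABA response and was chosen with earlier results of these data known. An excess over the table, in either genotype, is therefore not an independent result. HSFA6B, a heat shock factor, rose 19.9-fold with ABA and 11.6-fold with mannitol. The NAC factor ANAC019 rose 18.5-fold and 32.6-fold, and its relative RD26 rose 6.05-fold under ABA, from 21.4 to 130 FPKM. RAV1, a growth-restraining factor, fell from 35.3 FPKM to 5.07 with ABA and 5.52 with mannitol.

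Among mutant comparisons ANAC019 was the 1 gene of these 12 called under ABA, at 5.16-fold, from 0.137 to 0.708 FPKM. Under mannitol 6 rose and none fell, against 23.3% and 27.2% of table genes, with a median of 1.09 against -0.29 over the table. ANAC019 rose 133-fold to 18.2 FPKM against 55.5 FPKM in the wild type. NAP, a senescence factor, rose 6.65-fold in both genotypes. HSFA6B was listed at 0.997 FPKM in control and 0.901 under mannitol, also without a call.

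Pooled over these 4 lists, 32 of 56 other transcription factors were in the table. The lists were chosen with earlier results of these data known, so an excess over the table is not an independent result. Under ABA 13 were called higher in the wild type and 1 in the duodecuple line, where 17.6% and 2.49% of table genes were. Under mannitol 16 and 10 were, against 33.1% and 23.3%. Lower calls numbered 9 and 2 under ABA (27.3% and 2.79% over the table) and 7 in each genotype under mannitol (35.3% and 27.2%). The 9 lower calls under wild-type ABA were near the background share, as were the 7 in the mannitol-treated mutant. The 7 under wild-type mannitol were below it. Genes without any call are not in the table, so shares of a whole list would be smaller.

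**Figure D4:**
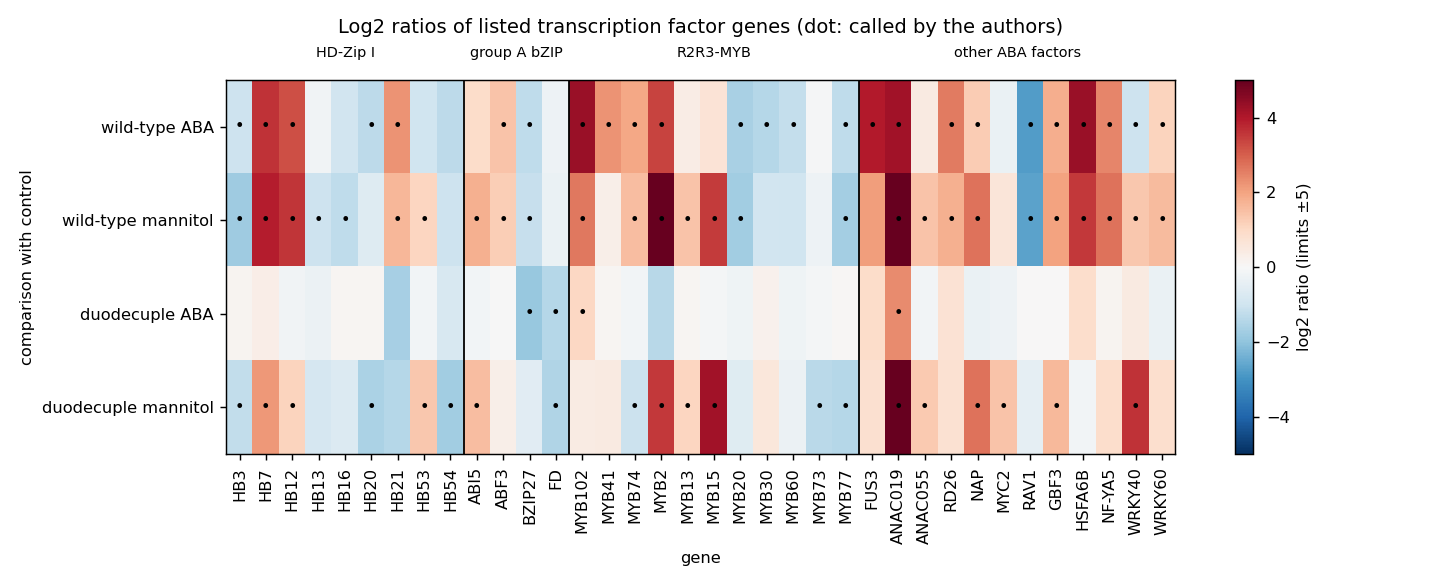
Log2 ratio of treated over control, as colour, for the 36 listed transcription factor genes (columns, by list) in the 4 comparisons (rows), with a dot where the authors called a change; colours end at ±5. The duodecuple ABA row is pale, with 4 calls in all, and the duodecuple mannitol row keeps 13 higher calls, HB7, HB12 and ABI5 included.

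The Em and AFP genes had other profiles than ABI5. Its targets EM1 and EM6, late embryogenesis genes, rose in the wild type 19.7-fold and 44.5-fold under ABA and 8.90-fold and 16.8-fold under mannitol. EM6 was listed at 1.25 FPKM in wild-type control, 55.4 with ABA and 20.9 with mannitol, the reverse of ABI5, whose value was higher under mannitol. In the mutant EM6 was listed at 0.309, 0.956 and 0.435 FPKM, and EM1 at 0, 0.168 and 0.0292 FPKM, without a call. Few table genes were called in the mutant under ABA (2.49% higher and 2.79% lower), and 23.3% and 27.2% were under mannitol. The mannitol-treated genotypes, within 1.06-fold for ABI5, were 48.1-fold apart for EM6.

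The AFP proteins bind ABI5 and restrain it, and 3 of their 4 genes were in the table. AFP1 and AFP3 rose with both treatments in wild-type seedlings, 4.97-fold and 4.62-fold for ABA and 3.54-fold and 2.56-fold for mannitol. AFP1 reached 43.9 and 31.3 FPKM in these groups. In the mutant it stood at 4.86, 4.87 and 5.04 FPKM in control, ABA and mannitol. AFP4 fell 2.07-fold under ABA in the wild type. None of the 3 was called in the mutant. Of table genes 2.49% were called higher and 2.79% lower there under ABA, and 23.3% and 27.2% under mannitol. The absence of a call among 3 genes under ABA was thus near the table share.

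**Figure D5:**
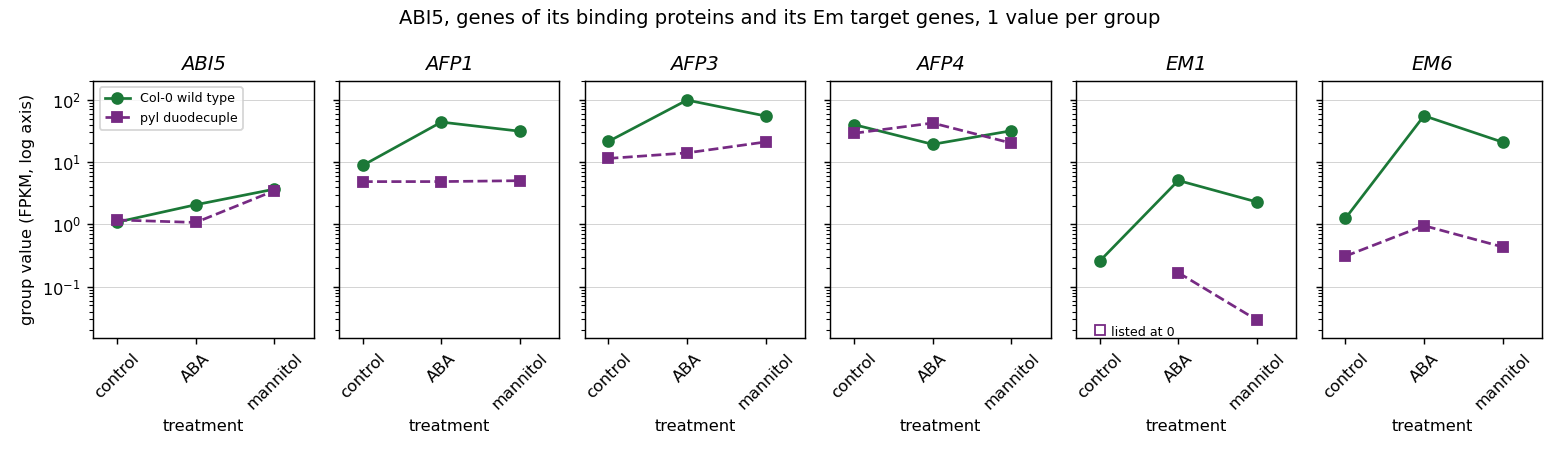
Group values in FPKM on a log axis for ABI5, for the AFP genes of its binding proteins and for its Em target genes by treatment; circles are the wild type and squares the duodecuple line, and the open square stands for EM1 listed at 0. Under mannitol the genotypes meet for ABI5 (3.68 and 3.47 FPKM) and are apart for EM6 (20.9 and 0.435 FPKM).

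Over the 6 group values HB7 and HB12 had the closest profiles among the 4 genes. Likeness was the root mean square difference between centred profiles of log2(FPKM + 1), a description over 6 points that share libraries and controls. It was 0.37 between HB7 and HB12, 0.74 between HB12 and MYB102, 0.93 between HB7 and MYB102, and 1.36 to 1.40 between ABI5 and each of the other 3. Pearson's r, which ignores the size of a response, was 0.98 for HB7 with HB12, 0.85 for HB7 with MYB102 and 0.90 for HB12 with MYB102. With ABI5 it was 0.80 for HB7, 0.69 for HB12 and 0.36 for MYB102. Among 5002 genes with 5 FPKM in some group, HB12 was the 9th most like HB7, and HB7 the 8th most like HB12.

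The genes most like each member were of mixed kinds. For HB7 they were INT2 (0.15), an inositol transporter, CYP76C2 (0.22), a cytochrome P450, and AT3G17110 (0.22). INT2 and CYP76C2 were called higher under ABA in the mutant, where HB7 was not. Like profiles thus did not always carry the same calls. INT2 was listed at 0.977, 21.7 and 34.0 FPKM in wild-type control, ABA and mannitol and at 0.399, 1.08 and 4.65 FPKM in the mutant. For HB12 they were COR413IM1 (0.23), a cold-regulated membrane protein gene, BAC2 (0.29), a mitochondrial carrier, and AT5G01300 (0.31).

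For MYB102 the nearest were CYP707A4 (0.17), an ABA hydroxylase gene, AT1G14730 (0.22) and AT5G24080 (0.24). CYP707A4 was listed at 0.406, 12.5 and 5.53 FPKM in the wild type and at 0.151, 0.447 and 0.0600 FPKM in the mutant, likewise higher under ABA than under mannitol. For ABI5 they were AT4G15120 (0.02), annotated with a VQ motif, AT1G25370 (0.06) and AT4G26060 (0.06). AT4G15120 was listed at 10.8 and 10.08 FPKM in mannitol-treated wild type and mutant, against 4.35 and 4.38 FPKM in control. These sets depend on the measure, since with Pearson's r in its place 0 of 3 genes were kept for HB7, HB12 and MYB102 and 1 of 3 for ABI5.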

How the data were processed

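RNA sequencing libraries of whole seedlings, 3 for each of 6 groups, were grouped by their titles. The submitters' processing notes name TopHat, Cufflinks, Cuffdiff and the build TAIR10; versions and settings are not given in the sources used here. The deposited table holds 1 value per group, taken as FPKM because these tools write it, and the authors' yes or no calls, whose rule is not stated. The authors' deposited log2 ratios differed from ratios recomputed without a pseudocount by at most 4.68e-05. Depth per library is unknown, and the planned models need values per library, so none could be fitted. The other deposited tables, 2 selections of 555 and 720 genes, repeat these values, hold none of the 4 genes and were not used here.

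The members and gene lists were chosen with earlier results of these data known. Ratios between genotypes, between treatments and between responses were computed from group values and counted at 2-fold, with 5 FPKM in the higher group where stated. Named genes were the 4 members and, per list, up to 4 called genes with the largest ratio in wild-type ABA, in wild-type mannitol (both with 5 FPKM) and in duodecuple mannitol, all called in duodecuple ABA, and the 3 genes most like each member. A few listed genes outside it (HB53 in the wild type, MYB41 under mannitol, BZIP27 under mannitol, EM1 under mannitol, MYC2, CRC, and a named gene's values in other groups) were named after their values were seen.

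Locus identifiers matched RefSeq TAIR10.1 for 6726 of 6740 genes. Windows of 250 bases before to 50 after the gene start were searched on both strands, and coding sequences were aligned globally with Biopython 1.88. The likeness and motif searches were tried on simulated data, with near-copies of profiles and with motifs planted in sequence of A and T only. That setting is easier than the real data, so it checks the code and not how well the searches perform. Alternatives were pseudocounts of 0.1, 1 and 5 FPKM, centring of ratios on the median of uncalled genes (on all table genes between genotypes or treatments), other call rules and another measure of likeness. Those for mannitol over ABA were added later. Python 3.11.15, numpy 2.4.6, pandas 2.3.3 and matplotlib 3.10.9 were used.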

Additional observations from a re-analysis of the deposited data

How the results depend on the processing

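Without values per library, replicates could not be left out in turn, and the precision of every value is unknown. No paired analysis was possible because the files hold 1 value per group. Of 168 recomputed ratios and differences of the 4 genes, 151 stayed on their side of 2-fold, and none reversed. Adding the same FPKM to both values of a ratio only shrinks it. Such a ratio cannot reverse, and one below 2-fold cannot pass it, so part of this tally was fixed in advance. Of 24 recomputed list counts, 17 stayed within 1.5 times the reported count. The rises of HB7 and HB12 in the wild type and their ratios between genotypes under both treatments stayed on their side under every pseudocount and centring tried, and their response differences under the 3 pseudocounts, without centring. The low genes did not. With 5 FPKM added, log2 ratios under mannitol fell short of 2-fold for MYB102 (0.91) and ABI5 (0.51) in the wild type and for HB12 (0.82) and ABI5 (0.46) in the duodecuple line. For MYB102 under ABA in the duodecuple line they were 0.87, 0.36 and 0.10 with 0.1, 1 and 5 FPKM added. The control ratio between genotypes of MYB102 was -0.56 and -0.16 with 1 and 5 FPKM added. Mannitol over ABA in the duodecuple line was 0.93 for HB12 and 0.48 for ABI5 with 5 FPKM. The response difference of ABI5 under ABA was -0.99, -0.63 and -0.24 with 0.1, 1 and 5 FPKM, and that of MYB102 under mannitol -0.88 with 5 FPKM. Centring subtracted -0.17 for wild-type ABA, -0.12 for wild-type mannitol, -0.20 for duodecuple mannitol, 0.24 between genotypes under ABA, and 0.28 and -0.28 for mannitol over ABA in wild type and mutant. It brought ABI5 past 2-fold, to 1.099 under wild-type ABA and to -1.18 between the ABA-treated genotypes. Of the 32 other factors, the 1 higher and 2 lower calls under ABA in the duodecuple line became 0 and 0 with a minimum of 5 FPKM, as also at 2-fold with that minimum, and 4 were at least 2-fold lower without it. The 7 lower calls under duodecuple mannitol became 4 under both rules with the minimum. Of the 3 genes most like each member, 1 was kept for HB7 and HB12 and 0 for MYB102 and ABI5 with pseudocounts of 0.1 or 5 FPKM. With Pearson's r 0 were kept for HB7, HB12 and MYB102 and 1 for ABI5.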

Other observations

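Some listed factors had their highest value in the mannitol-treated mutant. WRKY40, a pathogen-induced repressor that also acts in ABA signalling, was listed at 65.2 FPKM there and at 14.6 FPKM in the mannitol-treated wild type. Per the authors' deposited table it rose 12.3-fold in the duodecuple line and 2.53-fold in the wild type, where it fell 2.05-fold under ABA. MYB15 was listed at 19.1 and 9.70 FPKM in the same 2 groups, and MYC2, a jasmonate factor, at 60.04 and 43.0 FPKM.

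The seed storage gene CRA1 was listed at 4.73 FPKM in wild-type control and 0.105 FPKM in mutant control, 45.1-fold apart, and at 7.92 and 2.41 FPKM under mannitol. In the mutant the authors' deposited table calls it higher under ABA (6.65-fold) and under mannitol (22.9-fold), and lower under ABA in the wild type (2.26-fold, to 2.09 FPKM). CRC, another storage protein gene, is called lower there too (3.53-fold). ABI5 stood at 1.09 and 1.18 FPKM in those controls. Of 6 seed storage markers 2 were in the table, and their summed level ran from 0.177 FPKM in mutant control to 9.64 FPKM in mannitol-treated wild type. None was listed at 0.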
